A study of Homo sapiens with 8 samples.

Results

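Polyamine metabolism was followed through the splicing of 8 genes, of 13437 genes with a skipped-exon event in the deposited tables: SAT1, AZIN1, ODC1, OAZ1, OAZ2, SMOX, AMD1 and SMS. The genes were selected on measured values, because a SAT1 exon had one of the largest inclusion differences under emetine, and the other 7 were added by pathway. Every event listed under one of these symbols was taken, which gave 38 of 82355 events for MCF10A and 43 of 98244 for HMLE TWIST. None of the 8 genes was without an event in either table. An event is a middle exon with a given pair of flanking exons, and its inclusion level is the share of transcripts that contain the middle exon, estimated from reads across splice junctions and corrected for the length that can give such reads.

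The samples were 8 libraries of polyadenylated RNA in 4 groups of 2 biological replicates. MCF10A is a non-tumorigenic human breast epithelial line, and HMLE TWIST is an immortalised breast epithelial line with a retrovirally integrated pBabe-TWIST construct that overexpresses the transcription factor TWIST. Within each line, the control group received the solvent DMSO and the other group 10 µM emetine, a plant alkaloid that blocks translation, and cells were collected after 24 hours. HMLE cells without TWIST were not analysed here, so line and TWIST status cannot be told apart. Junction reads summed over events ran from 78412292 to 91259363 per library, and a read can count in several events. As a check of the labels, the epithelial cadherin gene CDH1 had 5 events in MCF10A and 1 in HMLE TWIST, and its median event had 3247 and 11 reads over the 4 libraries of the line. Of the 6 epithelial markers, EPCAM had no event in either table, and KRT5 and KRT14 had none in HMLE TWIST. VIM, a mesenchymal filament gene, had 1 event in MCF10A and 18 in HMLE TWIST, and its median event had 65474 and 257631 reads over the 4 libraries of the line.

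Polyamines (putrescine, spermidine and spermine) are small positively charged molecules that bind RNA and are needed for growth and translation. Ornithine decarboxylase, encoded by ODC1, makes putrescine. AMD1 supplies the aminopropyl donor for the higher polyamines, and SMS makes spermine. SAT1 acetylates spermidine and spermine for export or breakdown, and SMOX oxidises spermine back to spermidine. The antizymes OAZ1 and OAZ2 bind ornithine decarboxylase and send it to the proteasome, and AZIN1 is a decarboxylase-like protein without activity that sequesters antizyme. Part of this control runs through RNA: antizyme is made only when ribosomes change reading frame, and SAT1 carries a poison exon, an exon whose inclusion brings a premature stop codon.

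SAT1 (ENSG00000130066.16) had 4 events in MCF10A and 3 in HMLE TWIST. The poison exon, 110 nucleotides on the plus strand of chromosome X (23802411 to 23802520, GRCh37), was listed with a single pair of flanking exons in both tables, so no other pair could be compared. It lies between the coding exon at 23801917 to 23802000 and the coding exon at 23803445 to 23803546. In GENCODE 29, matched by the lengths of the exon and of both introns, the exon belongs to a processed transcript with no annotated coding sequence, and the form without it is protein coding. The exon is shown because its letters carry the stops: 202 coding bases precede it in the coding transcript, and in that frame it holds 3 stop codons, in capitals, the first at bases 12 to 14 counted from the exon's 5′ end.
SAT1 110-nucleotide exon: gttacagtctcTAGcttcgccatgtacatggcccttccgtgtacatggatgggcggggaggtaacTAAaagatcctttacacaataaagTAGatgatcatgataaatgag

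The SAT1 exon was rarely included in the controls and mostly included under emetine. In MCF10A its inclusion level was 0.0335 and 0.0282 in the control libraries, against 0.763 and 0.743 with emetine. In HMLE TWIST it was 0.0258 and 0.0108 in the controls, against 0.729 and 0.645 with emetine. The groups did not overlap in either line, and the difference was 0.722 in MCF10A and 0.669 in HMLE TWIST. Because the gene was chosen for this difference, it is a description and has no test. The counting error was small beside it: the 95% Wilson interval of the lowest emetine library, at 886 reads, was 0.608 to 0.681, and that of the highest control library, at 2559 reads, was 0.0288 to 0.0390. These intervals cover counting error only.

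The junction reads behind the levels moved differently in the lines. They were expressed as RPM, reads per 1000000 junction reads of the same library in the table, with inclusion reads scaled to a single junction. In MCF10A the form with the SAT1 exon stood at 1.88 and 1.99 RPM in the controls and at 141 and 130 under emetine, a 70.2-fold ratio of the means. The form that skips it stood at 54.1 and 68.5 in the controls and at 43.8 and 45.1 under emetine. The sum of both forms was thus higher under emetine, 185 and 175 RPM against 56.0 and 70.5. In HMLE TWIST the form with the SAT1 exon stood at 0.345 and 0.190 RPM in the controls and at 12.5 and 6.87 under emetine, a 36.3-fold ratio. The skipping form stood at 13.0 and 17.4 in the controls and at 4.66 and 3.78 under emetine. The sum of both forms overlapped between the groups in HMLE TWIST, at 13.4 and 17.6 against 17.2 and 10.6. The coding form was therefore at 0.278 times its control level in HMLE TWIST and at 0.725 times in MCF10A. The tables were normalised separately and hold different events, so the levels of the lines are set side by side only. Reads measure RNA at collection, so altered splicing and altered stability of a form cannot be told apart.

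**Figure D1:**
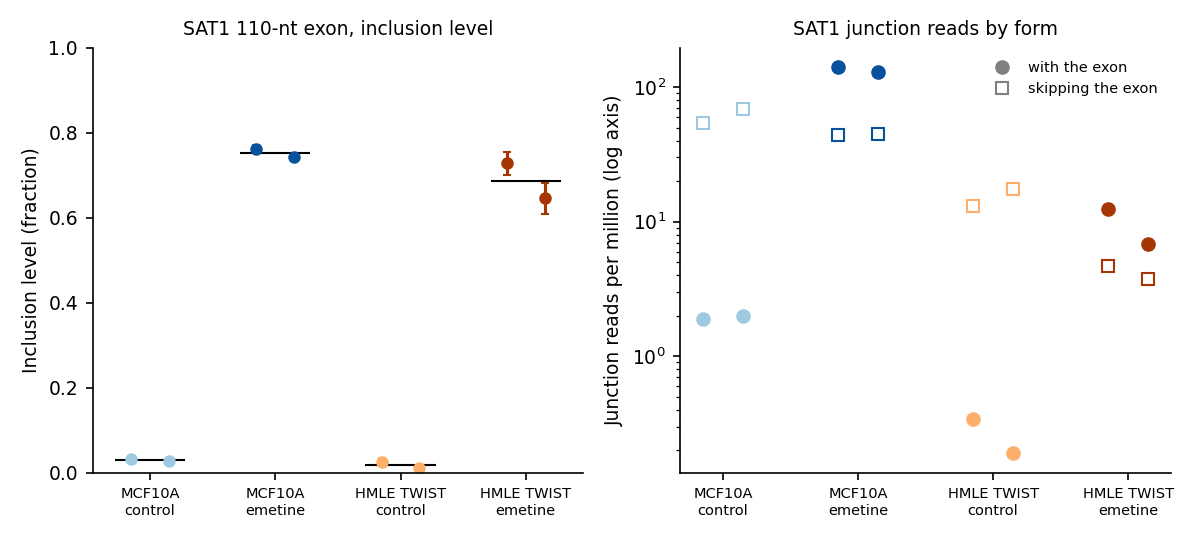
Left, inclusion level of the SAT1 110-nucleotide exon (fraction) in each library, with 95% Wilson intervals and the group mean as a line. Right, junction RPM on a log axis for the form with the exon (filled circles) and the form without it (open squares). Inclusion is above 0.64 in every emetine library and below 0.04 in every control, and the skipping form is lower under emetine in both lines, at 0.725 times the control mean in MCF10A and 0.278 times in HMLE TWIST.

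The lines were set side by side for the SAT1 exon without a test, because both the response and the starting level enter the difference that chose the gene. The difference of the changes, HMLE TWIST minus MCF10A, was -0.053, and the SD between replicates under emetine was 0.0591 in HMLE TWIST and 0.0139 in MCF10A. In the controls the level in HMLE TWIST minus that in MCF10A was -0.0126, with SDs of 0.0106 and 0.00376. The replicates of the lines did not overlap in either group, but with 2 libraries a group these values neither order the lines nor show them to be alike.

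The other SAT1 exons were included almost always. The coding exon upstream of the poison exon had levels of 0.998, 0.998, 0.998 and 0.99958 in MCF10A and of 0.997, 0.999, 0.998 and 1 in HMLE TWIST, at 654 to 9000 reads per library. The coding exons at 23803445 to 23803546 and 23803637 to 23803677 had at most 2 skipping reads in any library. Of the SAT1 exons listed, only the 110-nucleotide exon had a level that was not close to 1 in every library.

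Among the 7 other genes, an event was called changed where the adjusted p was under 0.05 in a quasi-binomial model of the inclusion and skipping counts, which allows for spread between replicates, and the level changed by at least 0.1. In MCF10A 18 events of the 7 genes had enough reads to be tested. SMOX had the only call, a rise, beside 7.9% of all 25522 tested events called higher and 5.15% called lower. In HMLE TWIST 15 events were tested and 0 were called, beside 6.11% higher and 7.91% lower of 30290. In HMLE TWIST 5 of the 15 had an unadjusted p under 0.05 in the quasi-binomial model, beside 14112 of all 30290 events. There limma with the same thresholds also called 0. Without the size threshold, 5 of 18 events passed in MCF10A (33.4% of all events) and 4 of 15 in HMLE TWIST (35.7%). The median change of the 18 was 0.0029 and that of the 15 was 2.1e-05, against -0.00017 and -0.0031 over all tested events. The shares of the 7 genes were thus near or below the background, and no general change of their splicing was seen.

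SMOX (ENSG00000088826.17), the spermine oxidase gene, had 3 events in each table. Its 90-nucleotide exon on the plus strand of chromosome 20 (4167390 to 4167479, GRCh37) is coding sequence in GENCODE 29 and absent from other coding transcripts of the gene. It is shown because, unlike the SAT1 exon, it keeps the frame: it follows 1371 coding bases, spans 30 codons and holds 0 stop codons in frame.
SMOX 90-nucleotide exon: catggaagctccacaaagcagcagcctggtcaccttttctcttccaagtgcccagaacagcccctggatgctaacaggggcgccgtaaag

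In MCF10A the SMOX exon had inclusion levels of 0.0451 and 0.0362 in the controls and of 0.277 and 0.283 under emetine. The emetine libraries lay well above both controls, and the rise of 0.240 passed the test (adjusted p = 5.9e-07, quasi-binomial model; 0.0161 with limma). Inclusion reads went from 42 and 27 to 237 and 237, while skipping reads were 468 and 379 against 325 and 316. In HMLE TWIST the levels were 0.0512 and 0.0929 in the controls, against 0.0990 and 0.137 with emetine. The groups did not overlap there, but the difference of 0.0460 did not pass (adjusted p = 0.307, quasi-binomial model; 0.341 with limma). SMOX was shallow in HMLE TWIST, with 43 reads in each control library, and the Wilson intervals of the controls reached from 0.0197 to 0.184. The difference of the changes, -0.194, did not pass either (interaction term, adjusted p = 0.0900, quasi-binomial model; 0.181 with limma), so the response of SMOX is not shown to differ between the lines.

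The other SMOX events were an upstream 118-nucleotide exon with levels of at most 0.0294 and a 235-nucleotide coding exon with at most 3 skipping reads per library. SMOX junction reads were higher under emetine in HMLE TWIST and close to the control in MCF10A. In HMLE TWIST the 3 events had 2.06 to 3.38 times the RPM of the control under emetine, and in MCF10A 0.983 to 1.06 times. No test was made of read totals, and the median ratio over all tested events was 1.32 in HMLE TWIST and 1.16 in MCF10A.

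OAZ1 (ENSG00000104904.12), the main antizyme gene, had 2 events in MCF10A and 6 in HMLE TWIST, of which 1 was tested in each. It concerns the 146-nucleotide coding exon on the plus strand of chromosome 19 (2271384 to 2271529, GRCh37). The exon is shown because it holds the frameshift site: GENCODE 29 leaves out the first base of a TGA triplet, at base 59 of the exon, where ribosomes change frame. Capitals mark this stop codon of the first reading frame. The transcript without the exon is annotated as a target of nonsense-mediated decay, the removal of RNA with premature stop codons.
OAZ1 146-nucleotide exon: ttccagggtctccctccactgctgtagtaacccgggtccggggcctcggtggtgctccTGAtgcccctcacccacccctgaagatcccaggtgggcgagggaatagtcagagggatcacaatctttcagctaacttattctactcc

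Skipping of the OAZ1 exon was rare in all 8 libraries and rose in both lines under emetine, by far less than the size of a call. In MCF10A the skipping level was 0.00127 and 0.00036 in the controls, against 0.00569 and 0.00382 with emetine, from 13 and 4 skipping reads against 45 and 34, at 15778 to 22078 reads per library. Inclusion fell by 0.0039 (adjusted p = 0.0018, quasi-binomial model; 0.0615 with limma). In HMLE TWIST the skipping level was 0.00579 and 0.0079 in the controls, against 0.0232 and 0.0219 with emetine, from 66 and 98 skipping reads against 259 and 289. Here inclusion fell by 0.0157 (adjusted p = 1.1e-04, quasi-binomial model; 0.0450 with limma). The control and emetine libraries did not overlap in either line. The difference of the changes was -0.0118 (adjusted p = 0.486, quasi-binomial model; 0.649 with limma). Between the untreated lines, OAZ1 skipping was higher in HMLE TWIST, a difference in inclusion of -0.0060 (adjusted p = 1.8e-10, quasi-binomial model; 0.132 with limma). The same exon joined to an upstream exon that ends at 2270675 had at most 1 skipping read in each library.

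OAZ2 (ENSG00000180304.14; chromosome 15, minus strand), a second antizyme gene, had 5 events in MCF10A and 6 in HMLE TWIST, and 5 were tested in each. Its 158-nucleotide exon (64983633 to 64983790) was skipped in 13 and 14 reads of the HMLE TWIST controls and in 0 and 3 under emetine. The inclusion level was 0.9856 and 0.9857 in the controls against 1 and 0.997, a rise of 0.0127 (adjusted p = 0.0240, quasi-binomial model; 0.0606 with limma). In MCF10A the same OAZ2 exon had 8 and 10 skipping reads in the controls, against 5 and 4 with emetine, and its difference of 0.0067 did not pass (adjusted p = 0.192, quasi-binomial model). The other 4 tested OAZ2 exons were either nearly always or nearly never included, and their differences ran from -0.0023 to 0.0030.

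AZIN1 (ENSG00000155096.13; chromosome 8, minus strand) had 10 events in MCF10A and 9 in HMLE TWIST, and had the only exon of the 8 genes with intermediate use in the controls. This noncoding exon of the 5′ untranslated region was listed as a form of 146 nucleotides (103862227 to 103862372) and a form of 167 nucleotides (to 103862393), which share the skipping reads and a splice junction and are not independent. In MCF10A the 146-nucleotide form had levels of 0.409 and 0.454 in the controls and of 0.496 and 0.490 under emetine. It rose by 0.0616 (adjusted p = 0.0095, quasi-binomial model; 0.546 with limma). In HMLE TWIST it had levels of 0.409 and 0.428 in the controls and of 0.387 and 0.363 under emetine, a difference of -0.0438 that did not pass (adjusted p = 0.0506, quasi-binomial model; 0.659 with limma). The emetine libraries thus lay above the controls in MCF10A and below them in HMLE TWIST.

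The 167-nucleotide form of AZIN1 moved the same way. It rose by 0.0433 in MCF10A (adjusted p = 0.0424, quasi-binomial model; 0.627 with limma), from 0.279 and 0.319 to 0.345 and 0.340. It fell by 0.0487 in HMLE TWIST (adjusted p = 0.0196, quasi-binomial model; 0.545 with limma), from 0.283 and 0.300 to 0.240 and 0.246. The untreated lines did not differ detectably in either form, with adjusted p of 0.592 and 0.747 in the quasi-binomial model.

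Of 14 events of genes other than SAT1 tested for a line-dependent response, 1 was called, beside 2.81% of all 19025 events tested. It was the 146-nucleotide form of AZIN1, with a difference of the changes of -0.105 (interaction term, adjusted p = 0.0024, quasi-binomial model), just past the size threshold. The 167-nucleotide form lay just under it, at -0.092 (adjusted p = 0.0053, quasi-binomial model). These forms, which share reads, were the 2 of 14 events that passed at any size, beside 4.67% of all events. With limma on the log2 odds the AZIN1 forms had adjusted p of 0.599 and 0.583, but limma called 0 of all 19025 events here, so this adds little. The call was also lost when the first MCF10A control, the second HMLE TWIST control or the second HMLE TWIST emetine library was left out, where 0 member events were called.

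AZIN1 also had a coding exon with more skipping under emetine in both lines. The 163-nucleotide exon at 103845284 to 103845446 had skipping levels of 0.0090 and 0.0080 in the MCF10A controls and of 0.0192 and 0.0182 under emetine. The HMLE TWIST controls had 0.0029 and 0.0072, against 0.0170 and 0.0252 in the emetine libraries. Inclusion fell by 0.0102 (adjusted p = 0.0454) and 0.0160 (adjusted p = 0.0205) in the quasi-binomial model, against 0.112 and 0.0650 with limma. The remaining coding exons of AZIN1 had at most 7 skipping reads in any library.

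**Figure D2:**
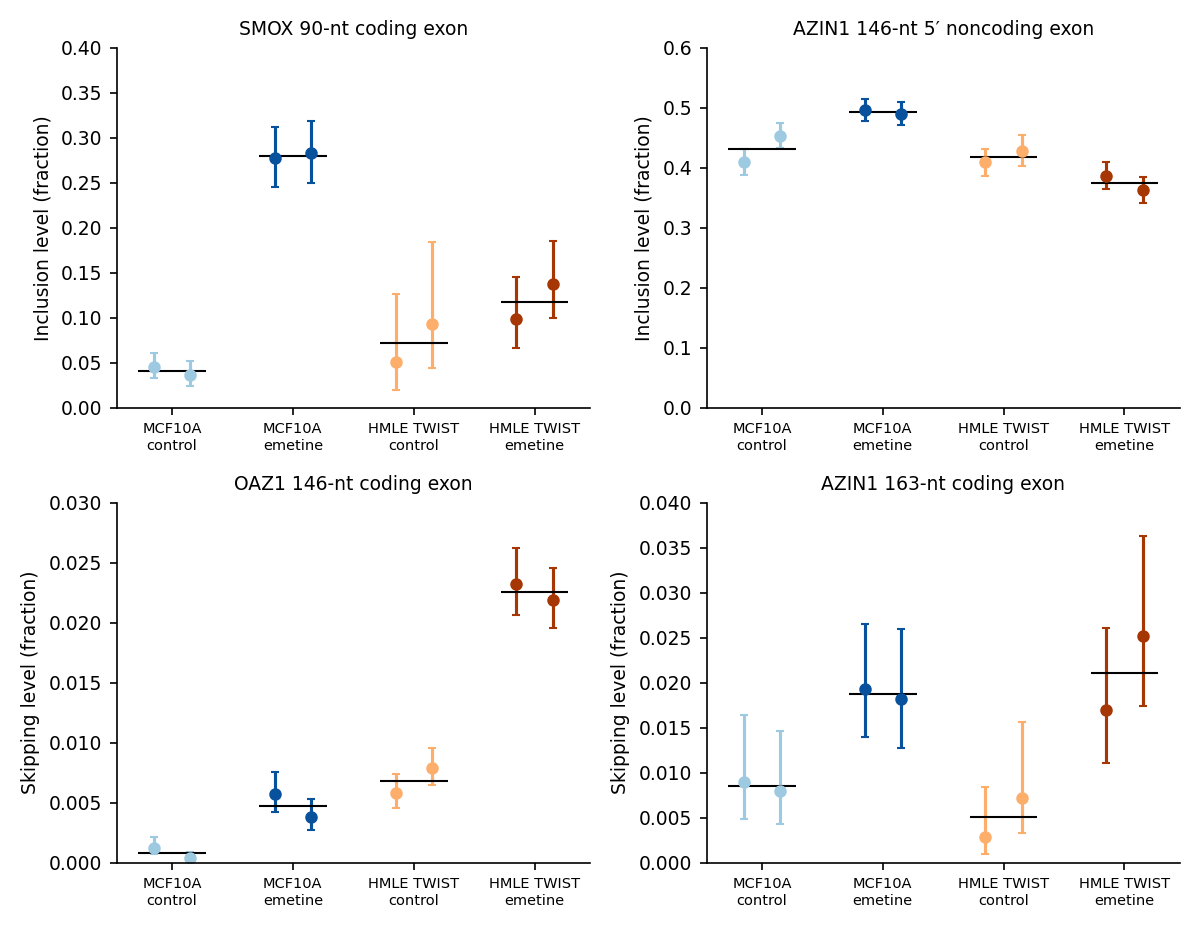
Inclusion level of the SMOX 90-nucleotide and AZIN1 146-nucleotide exons and skipping level of the OAZ1 146-nucleotide and AZIN1 163-nucleotide exons (fractions) in each library, with 95% Wilson intervals and group means as lines. The vertical scales differ: SMOX reaches 0.283, whereas OAZ1 skipping stays under 0.03.

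ODC1 (ENSG00000115758.12; chromosome 2, minus strand) had 4 events in MCF10A and 6 in HMLE TWIST, all of exons that were nearly always included. The event with the most reads, a 173-nucleotide coding exon at 10584221 to 10584393, was the only one tested. Its inclusion reads were 3235 and 3292 in the MCF10A controls, against 14968 and 14648 with emetine, and 4652 and 3286 against 12694 and 12608 in HMLE TWIST. Skipping reads numbered 0 and 0 against 17 and 2 in MCF10A and 2 and 0 against 13 and 11 in HMLE TWIST, and neither change of level passed (adjusted p = 0.192 and 0.171, quasi-binomial model). A count of 0 among the 3235 reads of the first MCF10A control allows skipping in up to 0.0927% of these reads, before the length correction that the levels carry.

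The emetine libraries of ODC1 were the higher ones in both lines. In RPM, the ODC1 exon stood at 36.6 and 35.0 in the MCF10A controls and at 162 and 156 under emetine, and at 45.8 and 32.8 against 126 and 125 in HMLE TWIST. Over all ODC1 events the ratio of the means was 4.33 to 4.69 for MCF10A and 3.02 to 3.24 for HMLE TWIST. Gene counts were not analysed here, so this is a reading from junctions that the tables list, with no test.

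AMD1 (ENSG00000123505.14; chromosome 6, plus strand) had 6 events in each table, of which 2 were tested in MCF10A and 3 in HMLE TWIST, and none passed. The deepest, the 87-nucleotide coding exon at 111208708 to 111208794, had levels of 0.988 and 0.985 in the MCF10A controls and of 0.988 and 0.994 under emetine, and 0.973 and 0.984 against 0.996 and 0.984 in HMLE TWIST. The adjusted p in the quasi-binomial model was 0.586 and 0.266. A 43-nucleotide AMD1 exon at 111213364 to 111213406, joined to the exon that ends at 111196418 in a transcript annotated as a decay target, had 0 to 14 skipping reads and a difference of -0.0250 in HMLE TWIST (adjusted p = 0.294, quasi-binomial model).

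SMS (ENSG00000102172.15; chromosome X, plus strand) had 4 events in each table, of which 1 was tested. This 65-nucleotide exon at 21990625 to 21990689 was tested as joined directly to the exon that ends at 21985434. That join is annotated in a processed transcript, and the skipping form matches a coding one. The same exon lies downstream of the 94-nucleotide SMS exon, in an event whose inclusion form matches protein-coding transcripts. The direct join, the skipping form of that event, had at most 2 reads in any library. Nearly all inclusion reads of the tested event thus crossed the junction towards 21995179. The levels of the 65-nucleotide event were 0.968 and 0.942 in the MCF10A controls, against 0.979 and 0.968 with emetine, and 0.931 and 0.940 against 0.9497 and 0.942 in HMLE TWIST. Neither difference, 0.0186 and 0.0100, passed (adjusted p = 0.162 and 0.366, quasi-binomial model). Its 3 other events had at most 6 skipping reads in any library.

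**Figure D3:**
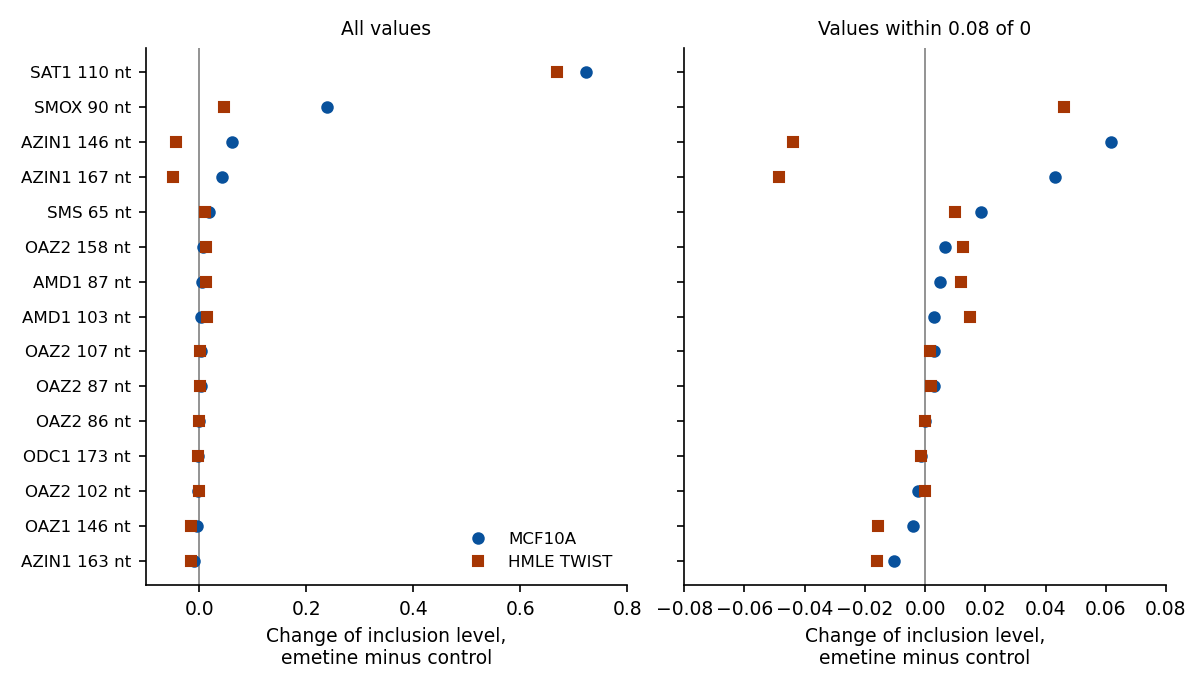
Change of inclusion level (emetine minus control) of the 15 member events tested in both lines, ordered by the change in MCF10A. Circles are MCF10A and squares HMLE TWIST; the right panel enlarges the values within 0.08 of 0. SAT1 is at 0.722 and 0.669 and SMOX at 0.240 and 0.0460. The 146- and 167-nucleotide AZIN1 forms both lie above 0 in MCF10A and below 0 in HMLE TWIST.

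Read totals differed among the genes as well as splicing. In junction RPM, the deepest OAZ1 event was the most abundant of the genes in every group, with 171 to 261 RPM, except for ODC1 and SAT1 in MCF10A under emetine, which stood beside it at 156 to 185. SMOX was the lowest in HMLE TWIST, at 0.792 to 2.89 RPM. AMD1 had 0.673 to 0.731 times its control RPM under emetine in MCF10A and 1.70 to 1.77 times in HMLE TWIST, over its 6 events. SMS had 1.03 to 1.08 times and 0.607 to 0.635 times. AZIN1 had 1.25 to 1.44 times in MCF10A and 1.08 to 1.20 times in HMLE TWIST, and OAZ2 1.03 to 1.22 times and 0.828 to 0.862 times. OAZ1 had 0.768 to 0.771 times in MCF10A and 0.994 to 1.05 times in HMLE TWIST. These ratios are descriptions over 2 libraries a group, with no test. Over all tested events the median ratio was 1.16 in MCF10A and 1.32 in HMLE TWIST, so a ratio near 1 lies below the typical event.

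**Figure D4:**
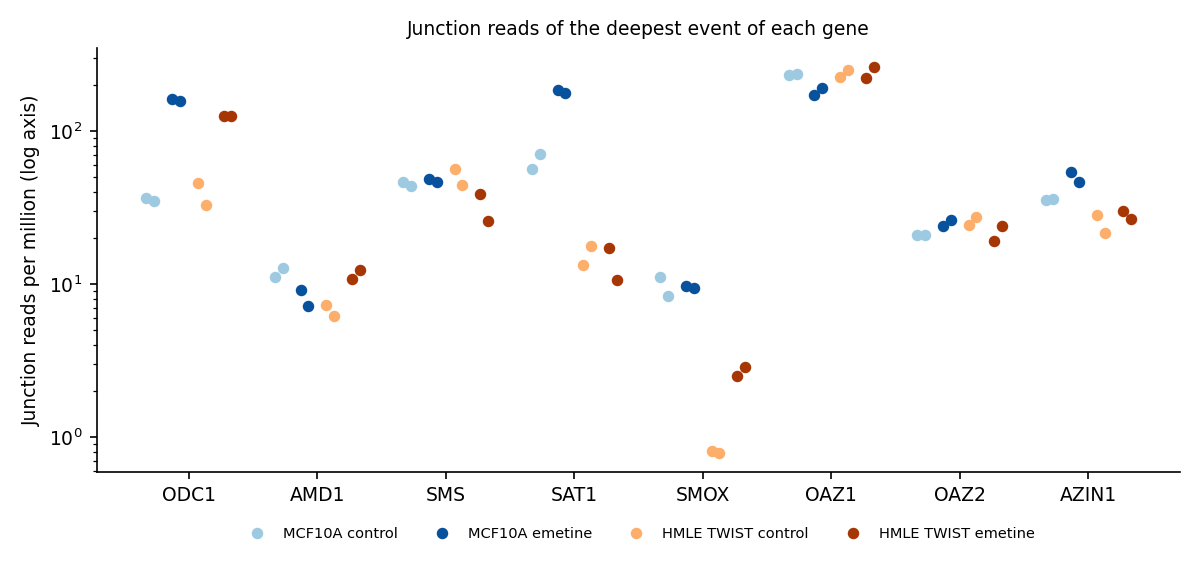
Junction RPM (log axis) of the event with the most reads of each gene, in each library, by line and treatment. The largest ratios of emetine to control are those of ODC1 (4.44 in MCF10A and 3.19 in HMLE TWIST), SMOX in HMLE TWIST (3.38) and SAT1 in MCF10A (2.85). Smaller rises include AMD1 in HMLE TWIST (1.73) and AZIN1 in MCF10A (1.41). Each line was normalised within its own table.

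Between the untreated lines, 13 events of 6 genes other than SAT1 were tested and 0 were called, beside 6.49% of all 19301 events. Of the 13, 2 had an unadjusted p under 0.05 in the quasi-binomial model, beside 5271 of all 19301 events. With limma 0 were called, but it called only 36 of all events here, so its 0 adds little. At any size 1 passed, that of OAZ1, beside 15.6% of all events, and its inclusion level was lower in HMLE TWIST. ODC1 had no event with enough skipping reads for this test.

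A wider list of 22 polyamine, methionine cycle, eIF5A and transport genes held 19 with an event in at least 1 table. In MCF10A 34 events in 12 of these genes were tested, of which 2 were called higher and 1 lower, 8.82% in all beside 7.9% higher and 5.15% lower over all events. For HMLE TWIST the test covered 51 events in 14 genes, with 1 called higher and 5 lower, 11.8% in all beside 6.11% higher and 7.91% lower over all events. Under emetine, calls in the wider list were thus no more frequent than over all tested events. Between the untreated lines 8.57% of its 35 tested events were called, beside 6.49% of all events. At any size 10 of the 35 passed, beside 15.6%. For a line-dependent response 3.57% of its 28 tested events were called, beside 2.81% of all events. At any size 6 of the 28 passed, 5 of them in SLC3A2, beside 4.67%. SAT2, a relative of SAT1, had a 52-nucleotide exon (chromosome 17, 7530681 to 7530732) that fell in both lines. It went from 1 and 0.995 to 0.829 and 0.880 in MCF10A (adjusted p = 5.1e-05, quasi-binomial model) and from 0.985 and 0.994 to 0.670 and 0.691 in HMLE TWIST (adjusted p = 2.2e-05), with limma at 0.0197 and 0.0113. A 102-nucleotide SAT2 exon (7530261 to 7530362) fell by 0.165 in HMLE TWIST, where the groups did not overlap (0.889 and 0.892 against 0.727 and 0.724). In MCF10A it had 0.633 and 0.620 against 0.591 and 0.626. The difference of the changes for this SAT2 exon was -0.148 (interaction term, adjusted p = 2.5e-05, quasi-binomial model; 0.251 with limma, which called 0 of all events for this term).

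The other calls of the wider list lay in 6 genes. In MCF10A a 176-nucleotide exon of OAZ3, an antizyme gene, rose from 0.649 and 0.758 to 0.923 and 0.946 (adjusted p = 0.0193, quasi-binomial model; 0.0314 with limma), at as few as 29 reads. An 89-nucleotide form of the OAZ3 exon rose by 0.262 (adjusted p = 0.0429, quasi-binomial model; 0.0554 with limma), at as few as 22 reads. The 176-nucleotide form also lay higher under emetine in HMLE TWIST, at 0.948 and 0.895 against 0.793 and 0.733, but was not called. In HMLE TWIST an exon of PAOX, the acetylpolyamine oxidase gene, fell from 1 and 0.917 to 0.529 and 0.614 (adjusted p = 0.0164, quasi-binomial model; 0.0246 with limma), at as few as 26 reads. ATP13A2, a lysosomal polyamine exporter gene, fell from 0.992 and 0.978 to 0.829 and 0.849 in HMLE TWIST (adjusted p = 1.8e-04, quasi-binomial model; 0.0190 with limma). In the same line ATP13A3 fell by 0.112 and MTAP rose by 0.115, with limma at 0.287 and 0.0277. Between the untreated lines, the 102-nucleotide SAT2 exon was higher in HMLE TWIST by 0.264, and overlapping 96- and 93-nucleotide exon forms of SLC3A2 had differences of -0.185 and -0.179, none of which limma called.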

How the data were processed

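A table of skipped-exon events, laid out as rMATS writes them, was deposited for each line. Reads were aligned with STAR 2.5.3a to GRCh37, per the submitters' processing notes; the rMATS version is not given in the sources used here. Per the file headers, the authors' deposited values are inclusion and skipping junction counts per library, effective form lengths, a p-value and FDR (used as an alternative), and a difference score. The first group was taken as control from the order in each table's name.

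The inclusion level is inclusion count over its form length, divided by that value plus skipping count over its form length. Events with at least 20 reads in every library and 10 of the rarer form were tested with a quasi-binomial logistic model (R 4.3.3). Its dispersion was moderated with limma 3.58.1 (squeezeVar) and floored at 1, and p-values of a two-sided moderated F test were Benjamini-Hochberg adjusted over all tested events. The difference between lines was the interaction term over all 8 libraries. Each test compares log odds, whereas the changes printed, and the differences of these changes, are on inclusion levels. The alternative limma fit used log2 odds with 0.5 added to each count. Fits that leave out a library or add a replicate block kept the prior of the full fit. Wilson intervals are at 95%, and a count of 0 allows a share of up to 3 counts. Replicates differed by more than counting error (mean chi-square per event 1.82 to 2.09).

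All 8 members are named, and SAT1 is given without a test in every comparison. Every SAT1 event, every called event and otherwise the deepest event are given; events that passed at any size and the called events of the wider list were added. The members and lists were chosen with earlier results of these data known. Of 48 member events, 44 matched GENCODE 29 (GRCh38) transcripts by exon and intron lengths, from which sequences were read; no coordinates were converted.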

Additional observations from a re-analysis of the deposited data

Results flagged for a closer look

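Some events passed the test of line by treatment. Members are listed here at any size, and genes of the wider list only where called. SLC3A2 of the wider list had 5 events that passed but were not called. The AZIN1 call was lost in some runs with a library left out. For AZIN1 the difference of the changes (HMLE TWIST minus MCF10A) was -0.105 for the 146-nucleotide form of its noncoding exon and -0.092 for the 167-nucleotide form, with shared reads. For the 102-nucleotide exon of SAT2 it was -0.148. In limma none of the 3 passed, with adjusted p of 0.599, 0.583 and 0.251. Limma called 0 of all 19025 events for this term, so its values say little about these 3.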

How the results depend on the processing

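Over the members other than SAT1, the count of events called changed in MCF10A was 1 (SMOX) and that in HMLE TWIST was 0 in each alternative run: limma, the event's own dispersion where larger, a minimum of 10 reads or of 1 read, no length correction, the authors' deposited FDR, a replicate block and leaving out each library. Over the same members, the count that differed between the untreated lines was 0 under the same alternatives, which for this and the next comparison exclude the authors' FDR. The count of line-dependent responses was 1 (AZIN1), 0 with limma, 2 without length correction, and 0 to 2 with a library left out; the cause was not tested. With a replicate block it was 1. Positions in the deposited pairs were taken as replicate numbers and did not pair the libraries (correlations of deviations 0.039 and 0.027). Over all events, limma called 2012 in MCF10A (main model 3329), 0 for the interaction (534) and 36 between the untreated lines (1253). The SAT1 difference was 0.799 and 0.778 without length correction, and 0.712 to 0.732 and 0.627 to 0.711 with a library left out. Depth limits SMOX in HMLE TWIST most, at 43 reads in each control.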
